A study of Homo sapiens with 12 samples.

Results

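Cells of LNCaP, an androgen-responsive line of human prostate cancer, were given an androgen, an mTOR inhibitor or both, and the data described here are the departures of the combined treatment from the sum of the single treatments. Cells were held for 48 h in medium free of phenol red with serum stripped of steroids. They then received 10 nM R1881, a synthetic androgen that binds the androgen receptor, 100 nM Torin 1, an inhibitor of the mTOR kinase, both agents (the combination), or the solvents ethanol and DMSO alone (vehicle), each for 48 h. All 12 arrays of the series enter the comparison, 3 in each of the 4 groups. A gene counts as measured when its probe was detected above background (detection p under 0.05) on at least 3 arrays, which gave 11517 genes from 47323 probes, and 1721 of them departed from additivity. Whether the 3 replicates of a group came from separate cultures is not stated in the labels, and if they did not, the p-values measure technical spread alone.

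The androgen receptor is a nuclear receptor that, once bound by androgen, enters the nucleus, binds DNA at enhancers and raises prostate genes such as KLK3, which encodes prostate-specific antigen (PSA). mTOR is a serine/threonine kinase found in a pair of complexes, of which the first drives ribosome production, lipid synthesis, glycolysis and amino acid metabolism, and the second activates AKT and SGK1. Torin 1 competes with ATP and blocks both complexes. Prostate cells link the pathways at several points, since androgen raises nutrient uptake and synthesis and PI3K-AKT-mTOR signalling feeds back on the receptor.

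Each gene has an R1881 response without Torin 1 (R1881 minus vehicle) and an R1881 response under Torin 1 (combination minus Torin 1), as differences of normalized log2 levels. The interaction is the second response less the first. It is 0 where folds multiply, and it equals the Torin 1 effect with R1881 less the Torin 1 effect without it. A gene was called when limma's Benjamini-Hochberg adjusted p was under 0.05. An amplified response was called on both sides with the same sign and was larger under Torin 1. An attenuated response was smaller, a lost response was called only without Torin 1, a gained response only under it, and a reversed response was called with opposite signs. A last kind held genes with a called interaction but neither response called.

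Between 16681 and 18868 probes were detected on each array. The counts ran from 17683 to 18868 with vehicle, 16837 to 17829 with R1881, 17012 to 18681 with Torin 1 and 16681 to 17195 with the combination. The lowest level of a detected probe was 4.68 to 4.74 log2 with vehicle and 4.77 to 4.81 with the combination. Arrays of a group correlated with r of at least 0.992, and a gene's SD over the 3 arrays of a group had a median of 0.105 to 0.112 log2. Of the 15 luminal markers of the labelled cell line, 13 were measured, and their summed normalized signal lay between 12890 and 13890 with vehicle, 12570 and 13590 with R1881, 13500 and 14790 with Torin 1 and 15380 and 16010 with the combination.

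The R1881 response was called for 4289 genes (37.2%) without Torin 1 and for 5191 genes (45.1%) under it, and the interaction was called for 1721 genes (14.9%). It was higher under Torin 1 for 906 genes (7.87%) and lower for 815 (7.08%). These shares are the background for the interaction counts of each gene list below. The interaction reached at least 1 log2 for 182 genes (1.58%), 117 of them higher and 65 lower. Gained responses were the most frequent kind with 639 genes (5.55%), of which 278 were rises (2.41%) and 361 falls (3.13%). Amplified responses followed with 465 genes (4.04%), 294 of them rises (2.55%) and 171 falls (1.48%). Another 345 genes (3%) lost their response, 156 a rise (1.35%) and 189 a fall (1.64%). Attenuation was found in 129 genes (1.12%), with 50 rises (0.434%) and 79 falls (0.686%). Reversal was found in 115 genes (0.999%), and 65 of these rose without Torin 1 and fell under it (0.564%) while 50 did the opposite (0.434%). The remaining 28 genes (0.243%) had neither response called. All 4 groups were measured for 1471 of the called genes, meaning detection on at least 2 of the 3 arrays in each group, and 206 were detected on no array of at least 1 group. With arrays scaled to a common median in place of quantile normalization the interaction was called for 817 genes, 546 higher and 271 lower, so the share of higher calls was 66.8% in place of 52.6%.

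**Figure D1:**
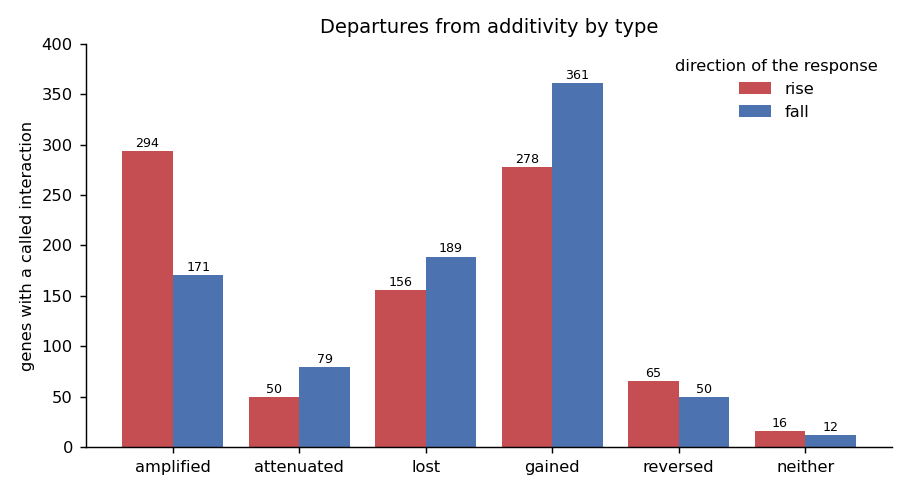
Number of genes with a called interaction (vertical axis) for each kind of departure (horizontal axis), with red bars for responses that are rises and blue bars for falls. Gained falls (361), amplified rises (294) and gained rises (278) are the tallest bars. Direction is that of the response without Torin 1, of the response under Torin 1 for gained ones, and of the interaction for neither.

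The androgen responses with and without Torin 1, which share no array, were related across the 11517 genes with a Pearson r of 0.80, given as a description since genes are not replicates. The orthogonal slope of the response under Torin 1 on the response without it was 1.25. Of the 3007 genes called in both, 2892 had the same sign, and among these the response was larger under Torin 1 for 1818 and smaller for 1074. Their median size was 0.53 log2 without and 0.63 log2 with Torin 1. Among the 284 genes that R1881 raised by at least 1 log2 without Torin 1, 101 were amplified and 36 attenuated. Among the 238 genes it lowered by at least 1 log2, 23 were amplified and 58 attenuated. The first of these sets went from a median response of 1.51 to 1.74 log2 and the second from -1.34 to -1.26, and both sets were picked on the response without Torin 1, which also enters the interaction. With median scaling the same counts were 66 and 15 of 215 rises and 13 and 50 of 397 falls. On the linear scale, where additivity means that signals add, the departure had the same sign as on the log2 scale for 1704 of the 1721 genes. RNA was taken from whole cultures, in which fewer cells of a kind and less RNA per cell cannot be told apart.

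**Figure D2:**
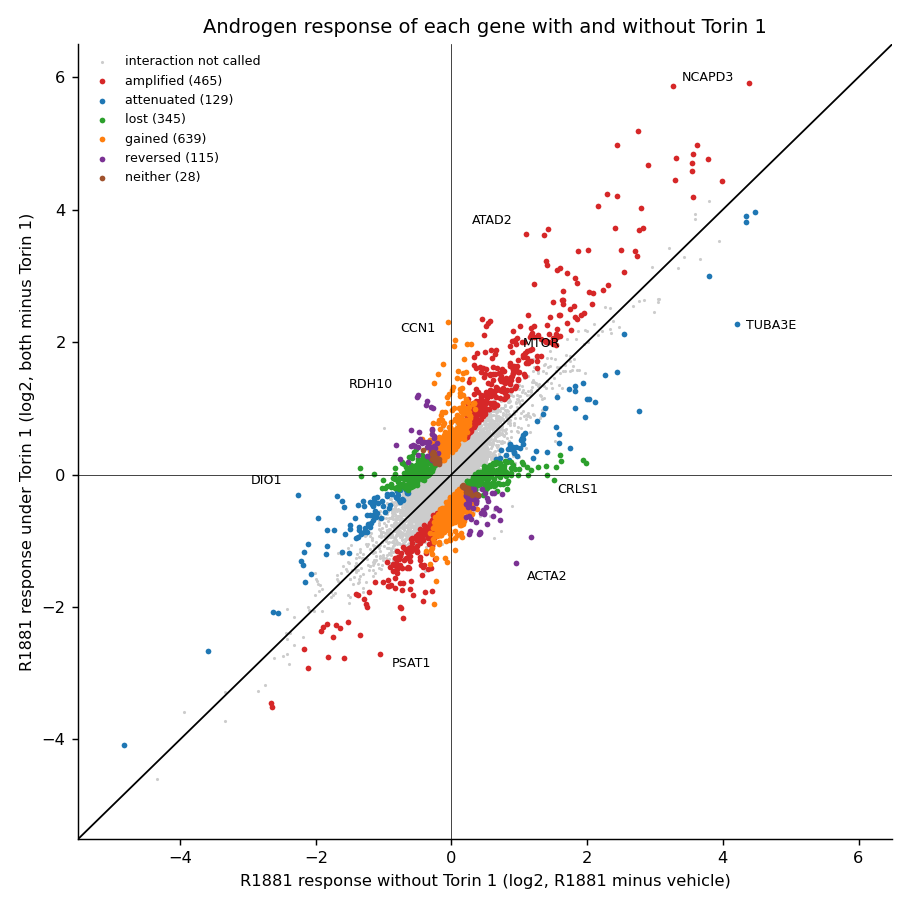
Each point is 1 of 11517 genes, with the R1881 response without Torin 1 (log2) across and the R1881 response under Torin 1 (log2) up, and the diagonal marks equal responses. Coloured points have a called interaction. Red amplified genes such as NCAPD3 and ATAD2 lie farther from 0 than the diagonal, orange gained genes lie along the vertical axis, green lost genes along the horizontal axis, and purple reversed genes such as ACTA2 and RDH10 in the opposite quadrants.

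The departures were made up of Torin 1 effects in different ways. Torin 1 alone raised 349 of the 1721 genes, lowered 446 and was not called for 926, where 16.2% of all genes rose and 15.7% fell. In the presence of R1881 it raised 712, lowered 733 and was not called for 276, where 23.1% of all genes rose and 22.3% fell. The 1721 genes were picked on the difference of these Torin 1 effects, so the splits given here follow in part from that choice. Among the 294 amplified rises, 154 had no called effect of Torin 1 alone and were raised by it with R1881, and GADD45G and VLDLR were of this kind. Another 45 were lowered by Torin 1 alone and not called with R1881, as SQLE was, so that the level with the combination was not called as different from R1881 alone. In 36 more, NCAPD3, ATAD2 and IDI1 among them, Torin 1 lowered the level without R1881 and raised it with R1881. The 361 gained falls held 195 genes in which Torin 1 had a called effect, a fall, only with R1881 present. Of the 189 lost falls, 93 had a called Torin 1 effect, a rise, only with R1881 present.

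Among amplified rises, NCAPD3, a subunit of condensin II, which compacts chromosomes, had the largest interaction of the genes measured in all groups. Its level was 6.11, 6.27 and 6.36 with vehicle, 9.59, 9.47 and 9.48 with R1881, 5.30, 5.12 and 5.22 with Torin 1 and 11.12, 11.02 and 11.11 with the combination. The groups did not overlap, and the lowest was Torin 1 alone and the highest the combination. R1881 raised NCAPD3 9.62-fold without and 58.4-fold under Torin 1, an interaction of 2.60 ± 0.12 log2 (SE, adjusted p = 6.13e-08). ATAD2, a bromodomain ATPase that assists nuclear receptors and E2F factors, had levels of 7.29, 7.42 and 7.48 with vehicle, 8.64, 8.41 and 8.45 with R1881, 5.61, 5.93 and 5.67 with Torin 1 and 9.37, 9.35 and 9.36 with the combination. It had the same order of groups, also with no overlap, and its response went from 1.10 to 3.63 log2 (interaction 2.52 ± 0.14, adjusted p = 2.29e-07). CLDN8, a claudin of tight junctions, stood at 7.34, 7.24 and 7.46 with vehicle, 8.74, 8.78 and 8.78 with R1881, 6.30, 6.44 and 6.18 with Torin 1 and 10.12, 9.95 and 9.97 with the combination. Its response went from 1.42 to 3.71 log2 (interaction 2.29 ± 0.12, adjusted p = 2.29e-07). GADD45G, a growth arrest and DNA damage gene, differed in that the Torin 1 effect without R1881 was not called (-0.13 log2, adjusted p = 0.261), while the combination exceeded R1881 by 2.13. Its levels were 7.87, 7.84 and 7.85 with vehicle, 9.27, 9.25 and 9.12 with R1881, 7.82, 7.72 and 7.62 with Torin 1 and 11.26, 11.30 and 11.48 with the combination, and its interaction was 2.27 ± 0.12 (adjusted p = 2.28e-07).

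Of the 42 genes listed as androgen-induced, 37 were measured, 10 of them with a group in which no array detected them. The interaction was higher for 20 and lower for 5, where 7.87% and 7.08% of all genes were so called, and its median was 0.48 log2 against -0.01 over all genes tested. The higher ones were 18 amplified rises, 1 gained rise (NNMT) and 1 lost fall (STEAP2), and the lower ones were ACP3, GNMT, KLK2, NDRG1 and TSC22D3. With median scaling 15 were higher and 2 lower. CENPN, a centromere protein, rose from 9.34 ± 0.11 (SD, n = 3) to 11.50 ± 0.07 with R1881 and from 8.29 ± 0.03 with Torin 1 to 12.34 ± 0.03 with the combination, so its response grew from 2.16 to 4.05 log2 (adjusted p = 3.03e-07). SGK1, a kinase that mTOR complex 2 activates, had levels of 5.26, 5.09 and 5.07 with vehicle, 7.48, 7.33 and 7.52 with R1881, 4.54, 4.50 and 4.92 with Torin 1 and 8.82, 8.88 and 8.96 with the combination, and only 1 of the Torin 1 arrays detected it. R1881 raised it by 2.30 and 4.23 log2, an interaction of 1.93 ± 0.16 (adjusted p = 4.63e-06), and its other 2 kept probes gave 1.69 and 1.76. KLF4, an epithelial transcription factor, had an interaction of 0.99 ± 0.13 (adjusted p = 0.000256), and its other kept probe gave 0.62, which was not called (adjusted p = 0.0521). TRPM8, a cation channel of the prostate epithelium, was detected on no vehicle array and on 1 Torin 1 array. Its response without Torin 1 was at least 3.44-fold, so its interaction, called by the fit (adjusted p = 0.00341), has no bound.

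Several of the most used androgen targets had interactions near the threshold or short of it. KLK3 stood at 4.45, 4.51 and 4.44 with vehicle, 7.94, 7.70 and 7.38 with R1881, 4.61, 4.87 and 4.42 with Torin 1 and 8.21, 8.08 and 7.86 with the combination, and the interaction was not called (adjusted p = 0.535). The R1881 and combination arrays overlapped, as did those with vehicle and Torin 1. No vehicle array and only 1 Torin 1 array detected it, so the response without Torin 1 was at least 7.82-fold. Under Torin 1 it was 3.42 log2. TMPRSS2, a membrane serine protease, had an interaction of 0.33 ± 0.11 (adjusted p = 0.0709). FKBP5, a co-chaperone of steroid receptors, was amplified by 0.44 ± 0.14 (adjusted p = 0.0457), and KLK2, a kallikrein protease, was attenuated by at least 1.06-fold (adjusted p = 0.0265) from a response of at least 15.9-fold, as no vehicle array detected it. Both of these calls were near the threshold: over the alternatives the adjusted p of FKBP5 ran from 0.0186 to 0.105 and that of KLK2 from 0.00986 to 0.123. The call of FKBP5 was lost in 12 of 22 alternatives, which include leaving out any 1 of the arrays other than vehicle replicate 1, R1881 replicate 1 and Torin 1 replicate 2. The call of KLK2 was lost in 9 of 21, which include leaving out vehicle replicate 2 or 3, R1881 replicate 1 or 3, Torin 1 replicate 3 or combination replicate 1 or 2.

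ANGPT2, a ligand of the TIE2 receptor of blood vessels, and NBL1, a secreted antagonist of bone morphogenetic proteins, were detected only where R1881 was present. The level of ANGPT2 was 4.36, 4.32 and 4.36 with vehicle, 6.90, 6.79 and 6.70 with R1881, 4.26, 4.27 and 4.32 with Torin 1 and 9.22, 9.27 and 9.28 with the combination. Either group with R1881 stood far above the others, and the combination exceeded R1881 alone by 2.46 ± 0.07 log2. Its R1881 response was at least 4.25-fold without and at least 23.1-fold under Torin 1 (interaction adjusted p = 2.49e-08), where the bound takes the lowest level of any detected probe on each array. For NBL1 the bounds were 5.34-fold without and 29.8-fold under Torin 1 (interaction adjusted p = 3.03e-07), and the combination exceeded R1881 by 2.50 ± 0.10.

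Cholesterol synthesis genes, which the SREBP2 factor turns on when sterols are low, departed mainly upwards. Of 24 listed genes 19 were measured, all 19 in every group. The interaction was higher for 8 and lower for 1 (TM7SF2), against 7.87% and 7.08% of all genes, with a median of 0.35 log2. Their median R1881 response was 0.41 log2 without and 0.77 under Torin 1, and their median Torin 1 effect without R1881 was -1.02 log2 against 0.02 over all genes. INSIG1, which holds the SREBP complex in the endoplasmic reticulum, had levels of 11.14, 10.89 and 10.98 with vehicle, 11.73, 11.43 and 11.47 with R1881, 8.25, 8.21 and 8.17 with Torin 1 and 10.31, 10.63 and 10.57 with the combination. Torin 1 brought it down by far without R1881 and less with it, and R1881 did not bring it back to the vehicle level. Its response went from 0.54 to 2.29 log2 (interaction 1.75 ± 0.15, adjusted p = 8.01e-06), while its dimmer kept probe gave -0.49, which was called in the opposite direction (adjusted p = 0.00936). IDI1, the isomerase that makes dimethylallyl diphosphate, stood at 8.33, 8.38 and 8.05 with vehicle, 8.79, 8.70 and 8.60 with R1881, 6.73, 6.82 and 6.90 with Torin 1 and 9.19, 8.93 and 9.37 with the combination. In IDI1 the order of groups was that of NCAPD3, and the interaction was 1.90 ± 0.17 (adjusted p = 8.67e-06). SQLE, squalene epoxidase, had levels of 9.46, 9.47 and 9.42 with vehicle, 9.73, 9.82 and 9.87 with R1881, 8.33, 8.19 and 8.24 with Torin 1 and 9.77, 9.96 and 9.84 with the combination. With R1881 its arrays overlapped whether or not Torin 1 was present, and its interaction was 1.25 ± 0.11 (adjusted p = 8.39e-06). In the fatty acid list 19 of 22 genes were measured, with 2 higher and 3 lower and a median of -0.16. The lower ones were ACACB, ACSL1 and ACSS2. Of the higher ones, the desaturase FADS1 was amplified by 0.67 ± 0.11 (adjusted p = 0.00135).

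Protein folding genes of the endoplasmic reticulum had called interactions in 1 direction. Of 42 listed genes 35 were measured, 24 rose with R1881 without Torin 1 and 31 under it, against 15.8% and 18.7% of all genes. The interaction was higher for 10 and lower for 0 by limma, against 7.87% and 7.08% of all genes, with a median of 0.30 log2. At an unadjusted p under 0.05 the counts were 20 higher and 0 lower. All 10 calls were amplified rises, a kind that took in 2.55% of all genes. With median scaling 6 were higher and 0 lower. The 10 were CREB3L2, CRELD2, DNAJC10, EDEM2, HYOU1, MANF, PDIA5, SDF2L1, SEC24D and TXNDC5. CRELD2, an ER stress protein, had levels of 9.49, 9.64 and 9.49 with vehicle, 9.85, 9.90 and 10.01 with R1881, 9.31, 9.35 and 9.27 with Torin 1 and 10.20, 10.42 and 10.33 with the combination. The groups did not overlap and the response went from 0.38 to 1.01 log2 (interaction 0.63 ± 0.11, adjusted p = 0.00266). SDF2L1, a cofactor of the chaperone BiP, had an interaction of 0.65 ± 0.11, and SEC24D, a coat protein of vesicles leaving the ER, one of 0.72 ± 0.13 (adjusted p = 0.00133 and 0.00238). HSPA5, which encodes BiP, had a response of 0.15 log2 without and 0.10 under Torin 1, and its interaction of -0.05 was not called (adjusted p = 0.82).

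Promoter letters of 3 lists were read because their members departed in a shared direction. RefSeq promoters (GRCh38.p14, 250 bases before to 50 after a start) were searched on both strands for the ER stress response element (CCAAT, then 9 bases, then CCACG) in the folding list, for TGATGNAA, the core of the C/EBP-ATF response element, in the serine and ATF4 list, and for CACGTG, the E-box that MYC and related factors bind, in the ribosome biogenesis list. The last letters of the first motif can overlap an E-box. A match describes letters and not a bound site. In the folding list 8 of the 33 members with a promoter held the first motif (24.2%), against 0.162% of the 9279 tested genes with a promoter and 0.0769% of all 35116 promoters. The motif was in 1 of the 9 members with a called interaction and in 7 of the 24 without, and the median interaction was 0.12 log2 with it and 0.33 without it. The folding genes with the motif (HSPA5, HSP90B1, CALR, CANX, PDIA6, CRELD2, XBP1 and ERO1B) were, CRELD2 apart, not called. A called and an uncalled member are shown, both 5′ to 3′ on the gene's strand with the motif in capitals, which here reads as the reverse complement. CRELD2 was amplified, and its window is chr22:49918529-49918597, plus strand. HSP90B1, a chaperone of secreted proteins, was not called (interaction 0.35 ± 0.11, adjusted p = 0.0505), and its window is chr12:103930296-103930364, plus strand, which holds 1 of its 2 matches. HSPA5, HSP90B1 and the other genes named for these promoters were chosen after their values were seen.
CRELD2: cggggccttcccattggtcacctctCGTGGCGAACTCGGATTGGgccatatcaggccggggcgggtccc
HSP90B1: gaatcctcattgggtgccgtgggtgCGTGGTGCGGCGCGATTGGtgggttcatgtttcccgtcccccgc

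Other amplified rises lay in insulin and mTOR signalling and in transcription factors. MTOR, the target of Torin 1, had levels of 7.15, 7.55 and 7.17 with vehicle, 8.12, 8.21 and 8.21 with R1881, 7.47, 7.13 and 7.28 with Torin 1 and 9.34, 9.36 and 9.21 with the combination. The Torin 1 effect without R1881 was not called (0.00 log2, adjusted p = 0.997), while its R1881 response went from 0.89 to 2.01 log2 (interaction 1.12 ± 0.16, adjusted p = 0.000532). IRS2, an adaptor of the insulin receptor that FOXO factors raise, stood at 4.84, 5.04 and 4.97 with vehicle, 6.26, 6.49 and 6.32 with R1881, 5.78, 5.94 and 5.69 with Torin 1 and 9.05, 8.87 and 8.96 with the combination. The 4 groups did not overlap, each agent alone raised IRS2, and the R1881 response went from 1.41 to 3.16 log2 (interaction 1.75 ± 0.13, adjusted p = 2.72e-06). VLDLR, a lipoprotein receptor, was amplified by 1.66 ± 0.12 log2 (adjusted p = 2.72e-06). WIPI1, an autophagy protein, was not detected with Torin 1 alone and had a response of 1.86 log2 without Torin 1 and of at least 6.45-fold under it (interaction adjusted p = 0.000183). In the list of coregulators and lineage factors 19 of 28 genes were measured. Of these 7 were higher and 1 lower, against 7.87% and 7.08% of all genes, with a median of 0.34 log2. With median scaling 3 were higher and 0 lower, and 4 were higher without vehicle replicate 2 or 3 or combination replicate 3. CEBPD, a C/EBP factor that glucocorticoids and androgens raise, was amplified by 1.03 ± 0.13 (adjusted p = 0.000236). Of 37 listed genes of the mTOR complexes and their regulators 31 were measured, with 4 higher (AKT1, MTOR, RRAGC and SGK1) and 3 lower (DDIT4, EIF4EBP1 and PRR5). The list's median was -0.06 log2, which turned to 0.0012 with median scaling, and then 3 were higher and 1 lower. Also 1 was lower without vehicle replicate 1, R1881 replicate 3, Torin 1 replicate 2 or 3 or combination replicate 2.

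Genes of serine synthesis, one-carbon metabolism and the amino acid response, which mTOR complex 1 supports through the factor ATF4, held 9 of the amplified falls. Amplified falls made up 1.48% of all genes. Of 34 listed genes 30 were measured. The interaction was lower for 14 and higher for 3, against 7.08% and 7.87% of all genes, with a median of -0.32 log2. R1881 lowered 14 of them without Torin 1 and 20 under it, against 21.5% and 26.3% of all genes, and 12 responses were amplified, 3 of them rises. With median scaling 9 were lower and 3 higher. PSAT1, the phosphoserine aminotransferase of serine synthesis, had levels of 10.66, 10.81 and 10.63 with vehicle, 9.70, 9.62 and 9.64 with R1881, 10.59, 10.59 and 10.48 with Torin 1 and 7.82, 7.80 and 7.90 with the combination. The groups did not overlap, the Torin 1 effect without R1881 was -0.15 log2 (adjusted p = 0.145), and the combination was lowest. R1881 lowered PSAT1 2.07-fold without and 6.54-fold under Torin 1 (interaction -1.66 ± 0.11 log2, adjusted p = 8.29e-07). STC2, stanniocalcin 2, an ER stress gene, rose with Torin 1 alone, and stood at 7.68, 7.60 and 7.69 with vehicle, 6.98, 7.02 and 6.81 with R1881, 8.33, 8.41 and 8.27 with Torin 1 and 6.24, 6.20 and 6.08 with the combination. Its R1881 response went from -0.72 to -2.17 log2 (adjusted p = 4.63e-06). The 3 higher members were VLDLR, SLC38A2 and CTH, and 2 of the lower ones, SHMT1 and TRIB3, reversed from a rise to a fall.

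The core TGATGNAA was found in 8 of the 26 members of this list that had a promoter (30.8%), against 2.63% of the tested genes with a promoter and 3.62% of all promoters. It was in 4 of 15 members with a called interaction and in 4 of 11 without, and the median interaction was -0.34 log2 with it and -0.32 without it. ASNS, asparagine synthetase, and GARS1, glycyl-tRNA synthetase, were both amplified falls (interaction -0.60 ± 0.11 and -0.64 ± 0.13, adjusted p = 0.0034 and 0.00439). Their windows, chr7:97872444-97872501, minus strand and chr7:30594820-30594877, plus strand, are shown because they carry the core, in capitals, as spelled in ASNS and as the reverse complement in GARS1.
ASNS: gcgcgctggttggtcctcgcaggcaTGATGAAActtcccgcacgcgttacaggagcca
GARS1: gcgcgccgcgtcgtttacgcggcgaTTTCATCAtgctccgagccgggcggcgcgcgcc

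Amplified falls outside this list included CMBL, a hydrolase, whose level was 9.48, 9.46 and 9.50 with vehicle, 9.31, 9.16 and 9.12 with R1881, 9.85, 9.91 and 10.01 with Torin 1 and 8.11, 8.24 and 8.16 with the combination. It rose with Torin 1 alone and was lowest with the combination (interaction -1.47 ± 0.11, adjusted p = 2.67e-06). DDIT4, an inhibitor of mTOR complex 1 that is in the FOXO, hypoxia and mTOR lists, had levels of 9.98, 9.92 and 10.00 with vehicle, 9.65, 9.46 and 9.54 with R1881, 8.64, 8.56 and 8.41 with Torin 1 and 6.59, 6.59 and 6.72 with the combination. Each agent lowered it, and the combination lowered it more than the sum (interaction -1.49 ± 0.12, adjusted p = 4.35e-06). BAMBI, a decoy receptor for bone morphogenetic proteins and TGF-beta, had an R1881 response of -0.35 log2 without and -1.43 under Torin 1 (adjusted p = 5.98e-05). BCHE, butyrylcholinesterase, a gene that androgen lowers, went from -2.66 to -3.46 log2 (adjusted p = 0.00369), but its call was lost with the authors' processed table (adjusted p = 0.0866). On the linear scale its departure had the opposite sign (203.81), so its fall was amplified as a fold only. Of the 25 genes listed as androgen-repressed 21 were measured, with 3 higher and 5 lower and a median of -0.25 log2, which was -0.03 with the authors' processed table. The lower ones include HES6, which R1881 raised and whose rise was attenuated. The list's median R1881 response was -2.10 log2 without and -2.05 under Torin 1. With median scaling 3 were higher and 2 lower, and 3 were lower without vehicle replicate 1 or 3 or Torin 1 replicate 2 or 3. UGT2B11, a steroid glucuronosyltransferase in that list, was an amplified rise (2.80 to 4.02 log2, adjusted p = 9.68e-06), but its other kept probe gave an interaction of 0.28, which was not called (adjusted p = 0.519), and its near-identical paralogs leave its identity uncertain.

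**Figure D3:**
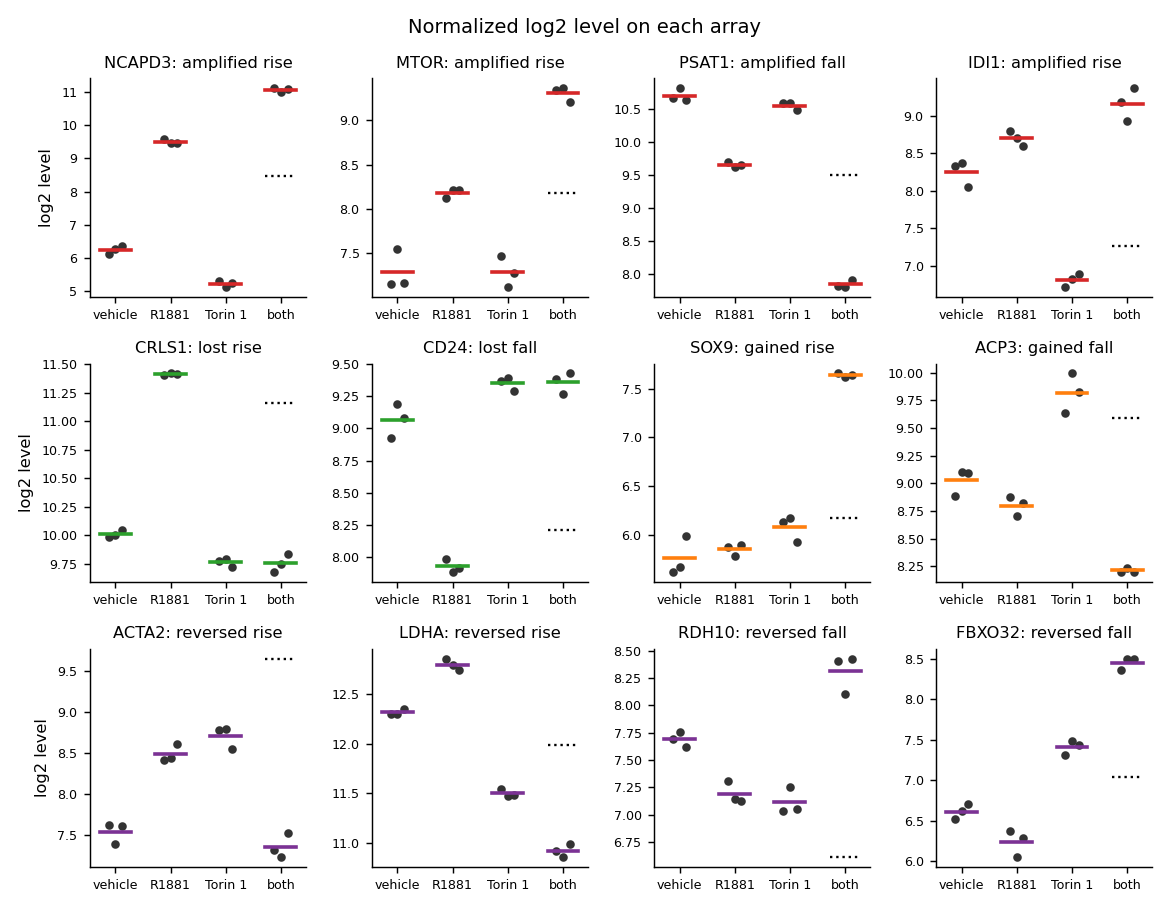
Normalized log2 level (vertical axes) of 12 genes on each of the 12 arrays, by group. Points are arrays, coloured bars are group means, and the dotted line over the combination is the level additivity predicts (R1881 plus Torin 1 minus vehicle). In NCAPD3 the combined arrays stand 2.60 log2 above the dotted line and in ACTA2 2.29 log2 below it.

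Attenuated rises kept part of their androgen response. LCP1, the actin-bundling protein L-plastin, had levels of 7.51, 7.63 and 7.58 with vehicle, 9.40, 9.02 and 9.08 with R1881, 7.16, 7.16 and 7.11 with Torin 1 and 7.75, 7.81 and 7.73 with the combination. The 4 sets of arrays lay apart and the response went from 1.59 to 0.62 log2 (interaction -0.97 ± 0.13, adjusted p = 0.000333). PAK1IP1, a nucleolar protein that binds the kinase PAK1, went from 2.44 to 1.55 (adjusted p = 0.00225), and its other probe gave -0.88. HES6, a transcription factor of the Hes family, went from 2.26 to 1.50 (adjusted p = 0.000757). TUBA3E, an alpha-tubulin with near-identical copies, stood at 4.40, 4.25 and 4.31 with vehicle, 8.44, 8.62 and 8.52 with R1881, 4.62, 4.33 and 4.28 with Torin 1 and 6.74, 6.60 and 6.71 with the combination. It was detected only with R1881, where it was at least 14.1-fold higher without and at least 3.88-fold higher under Torin 1, and the combination less R1881 was -1.84 ± 0.10 log2. SPTLC1, a subunit of serine palmitoyltransferase, had an interaction of -1.07 ± 0.16 (adjusted p = 0.000547), but its 4 other kept probes gave -0.32 to -0.09, none of them called.

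Among genes measured in all groups, attenuated falls were led by ASAP2, a GTPase-activating protein for ARF, with levels of 8.38, 8.59 and 8.47 with vehicle, 6.95, 6.71 and 6.74 with R1881, 8.40, 8.15 and 8.31 with Torin 1 and 8.05, 8.00 and 7.83 with the combination. R1881 alone stood lowest, and the vehicle and Torin 1 arrays overlapped. The response went from -1.68 to -0.33 log2 (interaction 1.36 ± 0.14, adjusted p = 3.41e-05), and its other kept probes gave 0.95 and 0.85. SLC12A2, a sodium, potassium and chloride cotransporter, went from -1.97 to -0.66 (adjusted p = 0.000226). DIO1, a thyroid hormone deiodinase, stood at 7.16, 7.36 and 7.19 with vehicle, 4.74, 5.12 and 5.07 with R1881, 4.90, 4.89 and 4.82 with Torin 1 and 4.57, 4.48 and 4.64 with the combination. R1881 and Torin 1 each brought it to a like low level, and in the combination no array detected it, so its fall under Torin 1 is only bounded at no less than 1.05-fold. The fit called its interaction (adjusted p = 2.16e-06), whose size has no bound here, so the fall may not have been attenuated. ID3, an inhibitor of basic helix-loop-helix factors and a target of bone morphogenetic protein signalling, was lowered by R1881 below detection, by at least 3.91-fold, and by -1.18 log2 under Torin 1 (interaction adjusted p = 8.29e-05, lost without background correction at 0.0716). On the linear scale the departure of ID3 had the opposite sign (-17.07). NLGN1, the synaptic adhesion protein neuroligin 1, went from -1.08 to -0.44 (adjusted p = 0.00125), a call lost with the authors' processed table (adjusted p = 0.191).

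Among lost rises, CRLS1, the enzyme that makes cardiolipin in mitochondria, had levels of 9.98, 10.00 and 10.04 with vehicle, 11.40, 11.42 and 11.42 with R1881, 9.77, 9.79 and 9.72 with Torin 1 and 9.68, 9.74 and 9.83 with the combination. R1881 stood above all other groups, and the combination arrays overlapped those with Torin 1. Its R1881 response was 1.40 log2 without and -0.01 under Torin 1 (interaction -1.41 ± 0.10, adjusted p = 1.51e-06). SERPINE2, a protease inhibitor of the matrix, stood at 6.89, 6.87 and 6.96 with vehicle, 8.71, 8.37 and 8.49 with R1881, 7.10, 7.26 and 7.06 with Torin 1 and 7.27, 7.37 and 7.41 with the combination. The 3 combination arrays lay above those with Torin 1 by 0.21 log2, which was not called, against 1.62 without Torin 1 (interaction adjusted p = 1.53e-05). GCNT2, which branches sugar chains on glycoproteins, went from 1.18 to 0.07 log2 (adjusted p = 6.53e-05). BCYRN1, a brain cytoplasmic noncoding RNA, went from 1.12 to 0.00 (adjusted p = 0.00514). NNT, the transhydrogenase that makes NADPH in mitochondria, and KRT19, a luminal keratin, were detected with R1881 alone and on no array of the other groups, at least 2.92-fold and at least 1.93-fold above vehicle and at least 2.75-fold and at least 1.82-fold above the combination. Both passed the detection filter only through the R1881 arrays, so their high level in that group follows in part from the filter. They were tested in 18 alternatives, where CRLS1 was tested in 22.

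Among hypoxia genes the called departures ran one way. Of 28 listed genes 25 were measured. The interaction was lower for 8 (BHLHE40, BNIP3, DDIT4, NDRG1, P4HA1, P4HA2, PFKFB3 and VEGFA) and higher for 0 by limma, against 7.08% and 7.87% of all genes. At an unadjusted p under 0.05 the counts were 11 lower and 2 higher. The median was -0.30 log2, and -0.14 with the authors' processed table. R1881 raised 12 of the 25 without Torin 1 and 5 under it, where 15.8% and 18.7% of all genes rose, so the count under Torin 1 was near the background. Of the 8 responses 4 were lost rises and 2 attenuated rises. With median scaling 5 were lower and 0 higher. P4HA1, a prolyl hydroxylase that matures collagen, went from 0.88 to 0.10 log2 (adjusted p = 0.000811). BHLHE40, a circadian repressor, had levels of 6.96, 7.17 and 7.05 with vehicle, 9.09, 9.03 and 9.03 with R1881, 5.21, 5.36 and 5.10 with Torin 1 and 6.32, 6.30 and 6.48 with the combination. Torin 1 lowered it with or without R1881, and the response was attenuated from 1.99 to 1.14 (adjusted p = 0.000625). In polyamine metabolism 15 of 16 genes were measured, with 3 higher and 3 lower, which were 1 and 0 with median scaling. It had 1 higher call without vehicle replicate 2 or 3, R1881 replicate 1, Torin 1 replicate 1 or 3 or combination replicate 3. ODC1, the first enzyme of that route, was amplified (1.59 to 2.10 log2, adjusted p = 0.0161), while the arginase ARG2 lost its rise (0.60 to -0.13, adjusted p = 0.00468, lost with median scaling at 0.0605).

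Lost falls included CD24, a surface glycoprotein of epithelial cells, at 8.92, 9.19 and 9.08 with vehicle, 7.98, 7.88 and 7.91 with R1881, 9.37, 9.40 and 9.29 with Torin 1 and 9.39, 9.27 and 9.43 with the combination. R1881 alone lowered it, and under Torin 1 the arrays with and without R1881 overlapped (response -1.14 and 0.01 log2, interaction 1.15 ± 0.12, adjusted p = 3.45e-05). Its other, dimmer kept probe gave an interaction of 0.47, which was not called (adjusted p = 0.157). MYNN, a zinc finger protein, stood at 8.60, 8.62 and 8.61 with vehicle, 7.11, 7.24 and 7.43 with R1881, 7.81, 7.85 and 7.90 with Torin 1 and 7.90, 7.97 and 7.97 with the combination. Its response went from -1.35 to 0.09 log2 (adjusted p = 5.47e-06). RCBTB2, a protein with RCC1 repeats, went from -0.83 to 0.10 (adjusted p = 0.00612). MYRIP, which links RAB27A to myosin, gave -1.01 and -0.09 (adjusted p = 0.000292), but its other kept probe gave an interaction of -0.19, and its call was lost with the mean of its kept probes (adjusted p = 0.0795).

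Gained rises were called under Torin 1 and not without it. CCN1, a matricellular protein that YAP and serum factors raise, had levels of 5.80, 5.74 and 5.91 with vehicle, 5.91, 5.79 and 5.90 with R1881, 5.18, 5.25 and 5.08 with Torin 1 and 7.37, 7.01 and 7.24 with the combination. The vehicle and R1881 arrays overlapped, and the combination stood above all others. Its response went from 0.05 to 2.04 log2 (interaction 1.99 ± 0.14, adjusted p = 1.37e-06). SOX9, a transcription factor of prostate development, stood at 5.62, 5.66 and 5.98 with vehicle, 5.88, 5.78 and 5.90 with R1881, 6.13, 6.17 and 5.92 with Torin 1 and 7.65, 7.62 and 7.64 with the combination. Here too the combination arrays stood apart, by 1.79 log2 over R1881 (interaction 1.46 ± 0.14, adjusted p = 2.08e-05). SYT4, a synaptotagmin of secretory vesicles, had levels of 11.46, 11.68 and 11.53 with vehicle, 11.36, 11.28 and 11.44 with R1881, 11.52, 11.63 and 11.59 with Torin 1 and 12.35, 12.30 and 12.44 with the combination. The combination arrays lay above all others, with an interaction of 0.98 ± 0.12 (adjusted p = 9.78e-05). RHOBTB3, an ATPase of the Golgi, and TLCD4, a membrane protein, had interactions of 1.79 ± 0.22 and 1.73 ± 0.17 (adjusted p = 0.000117 and 2.26e-05).

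Another pattern of gained rise was partial recovery from a fall. TMSB15A, a thymosin that binds actin monomers, had levels of 8.23, 7.94 and 8.35 with vehicle, 7.77, 8.39 and 8.20 with R1881, 4.93, 5.18 and 4.98 with Torin 1 and 7.24, 7.35 and 7.41 with the combination. Torin 1 alone lowered it by far, and with R1881 added it came most of the way back, a response of 2.30 log2 against -0.05 without Torin 1 (interaction 2.36 ± 0.21, adjusted p = 8.67e-06). TMSB15B is a near-identical copy, so the value of TMSB15A is uncertain. FEN1, the flap endonuclease of DNA replication, stood at 9.30, 9.28 and 9.21 with vehicle, 9.22, 9.23 and 9.22 with R1881, 6.99, 6.92 and 6.82 with Torin 1 and 8.08, 8.16 and 8.13 with the combination. The vehicle and R1881 arrays overlapped, and R1881 raised FEN1 by 1.21 log2 under Torin 1 (interaction 1.26 ± 0.10, adjusted p = 4.63e-06). SLC9B2, a sodium and proton exchanger, was detected only in the combination, at least 3.2-fold above Torin 1, yet its other kept probe gave -0.07. Without replicate 1, 2 or 3 of the combined arrays the probe was no longer kept, and the other probe then gave an interaction of -0.22, 0.04 and -0.04, none of them called.

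Cell cycle genes departed within a strong Torin 1 fall. Of 44 listed genes of DNA replication and S phase 40 were measured, 8 with an undetected group, and the median Torin 1 effect was -1.23 log2 without R1881. The interaction was higher for 6 and lower for 3 with a median of 0.13, and the counts were 5 and 0 with median scaling and 11 and 1 with the authors' processed table. In the list of G2/M and mitosis 44 of 46 genes were measured, 22 with an undetected group, with a median Torin 1 effect of -2.50 log2, and the interaction was higher for 8 and lower for 1, which was 14 and 0 with the authors' processed table. The higher calls were 4 without Torin 1 replicate 1 and 5 without vehicle replicate 2 or 3, R1881 replicate 1 or 2 or combination replicate 1, and also 5 with the replicate block. The median interaction was 0.17, and 0.37 with median scaling. R1881 lowered 20 of these 44 without Torin 1 and 4 under it, where 21.5% and 26.3% of all genes fell, and 6 of the 9 interaction calls (14.9% of all genes were called) were lost falls. Where Torin 1 had taken a gene below detection, a further fall could not be measured. The count under Torin 1 and the lost falls need therefore not mean a lost response. PBK, a lost fall by its calls, was detected on no array with Torin 1, alone or with R1881. PRC1, which bundles the central spindle, had levels of 9.24, 9.21 and 9.33 with vehicle, 8.55, 8.61 and 8.72 with R1881, 6.61, 6.71 and 6.72 with Torin 1 and 6.86, 6.88 and 6.88 with the combination. Its 4 groups were separate, and its response was -0.63 log2 without and 0.19 under Torin 1 (interaction 0.83 ± 0.10, adjusted p = 0.000176). TOP2A, topoisomerase II alpha, went from -0.75 to -0.14 (adjusted p = 0.00246), but 1 Torin 1 array and no combination array detected it, so a fall under Torin 1 would lie below the measured range.

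Among gained falls, ACP3, prostatic acid phosphatase, had levels of 8.88, 9.10 and 9.10 with vehicle, 8.88, 8.70 and 8.82 with R1881, 9.63, 9.99 and 9.82 with Torin 1 and 8.20, 8.23 and 8.20 with the combination. All 4 groups lay apart, with Torin 1 highest and the combination lowest, and the response went from -0.23 log2, not called, to -1.61 (interaction -1.38 ± 0.14, adjusted p = 2.83e-05). HBQ1, a theta globin, stood at 6.16, 6.03 and 6.39 with vehicle, 5.84, 5.85 and 6.11 with R1881, 6.87, 6.69 and 6.77 with Torin 1 and 4.80, 4.86 and 4.82 with the combination. It had the same order of groups (interaction -1.69 ± 0.15, adjusted p = 8.02e-06). VEGFB, a growth factor that binds VEGF receptor 1, and PRXL2B, a prostamide synthase, had responses under Torin 1 of -1.32 and -1.14 log2, and the combination arrays lay below all others (interaction adjusted p = 7.12e-05 and 0.000535).

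Ribosome biogenesis genes, which build and process ribosomal RNA and which MYC and mTOR support, held 9 gained falls. Gained falls made up 3.13% of all genes. Of 38 listed genes 33 were measured, 27 fell with R1881 under Torin 1 and 4 without it (26.3% and 21.5% of all genes did), and the median response went from -0.01 to -0.42 log2. The interaction was negative for 31 of the 33, as for 5859 of all 11517 genes. It was called lower for 11 and higher for 1, against 7.08% and 7.87% of all genes, with a median of -0.41. With median scaling 2 were lower and 0 higher, with a median of -0.34. BOP1, which matures the large ribosomal subunit, had levels of 9.43, 9.53 and 9.49 with vehicle, 9.45, 9.48 and 9.61 with R1881, 9.40, 9.36 and 9.50 with Torin 1 and 8.82, 8.68 and 8.83 with the combination. The combination arrays lay below all others, which overlapped (interaction -0.68 ± 0.11, adjusted p = 0.0013). NOLC1, a nucleolar phosphoprotein, had a response of 0.34 log2 without and -0.22 under Torin 1 (adjusted p = 0.00268, lost with median scaling at 0.11). Of 49 listed ribosomal protein genes 43 were measured, 1 (RPS21) had a called interaction and the median was 0.02. The RPS21 call was lost without vehicle, R1881 or combined replicate 2 and with median scaling, with an adjusted p of at most 0.18. The E-box CACGTG was in 11 of the 28 biogenesis members with a promoter (39.3%), against 12.8% of tested genes with a promoter and 7.26% of all promoters. It was in 3 of 9 members with a called interaction and in 8 of 19 without, and the median interaction was -0.415 log2 with it and -0.324 without it. LYAR, a nucleolar cell growth regulator (interaction -0.45 ± 0.12, adjusted p = 0.0248), and DDX21, a nucleolar RNA helicase (-0.26 ± 0.10, adjusted p = 0.118, not called), are shown as a called and an uncalled member, at chr4:4290055-4290110, minus strand and chr10:68956591-68956646, plus strand, with the E-box, which is its own reverse complement, in capitals.
LYAR: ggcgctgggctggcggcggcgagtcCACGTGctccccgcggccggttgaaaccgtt
DDX21: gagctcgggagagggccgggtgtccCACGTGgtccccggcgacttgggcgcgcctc

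Reversal from a rise to a fall was largest for ACTA2, smooth muscle alpha-actin. Its level was 7.62, 7.39 and 7.60 with vehicle, 8.42, 8.44 and 8.61 with R1881, 8.77, 8.79 and 8.54 with Torin 1 and 7.32, 7.23 and 7.52 with the combination. Each agent alone raised ACTA2, and the combination arrays overlapped those with vehicle. The R1881 response was 0.95 log2 without and -1.34 under Torin 1 (interaction -2.29 ± 0.15, adjusted p = 8.29e-07). ACTA2 also marks stromal cells. Of 12 stromal markers 5 were measured, and their summed normalized signal lay between 506 and 518 with vehicle, 643 and 682 with R1881, 790 and 846 with Torin 1 and 435 and 469 with the combination. VIM, vimentin, was also lower (-0.54 ± 0.12, adjusted p = 0.00681, lost with median scaling at 0.0948). COL1A2, COL3A1, DCN, LUM, FAP, PDGFRB and THY1 gave no measured gene, and the part of other cells in the ACTA2 result was not tested. Of 10 immune markers 3 were measured and of 8 basal markers 1, with no called interaction among them by limma (1 immune marker was lower at an unadjusted p under 0.05). The summed signal of the immune markers ran from 103 to 175 with Torin 1 and from 115 to 127 with the combination. In the list of actin and smooth muscle genes 17 of 24 were measured, with 3 higher and 3 lower, and its median of -0.07 was 0.04 with the mean of kept probes. It had 1 higher call without vehicle replicate 1, R1881 replicate 2, Torin 1 replicate 1 or combination replicate 3, and 1 with the replicate block.

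Glycolysis genes, which hypoxia-inducible factor and mTOR complex 1 raise, had called interactions in both directions, with 2 of 22 measured genes reversed (0.999% of all genes were). Of 24 listed genes 22 were measured, R1881 raised 8 and lowered 3 without Torin 1 and raised 4 and lowered 11 under it (of all genes 15.8% rose and 21.5% fell without it and 18.7% rose and 26.3% fell under it), and the median response was 0.10 and -0.36 log2. The interaction was lower for 8 and higher for 3, against 7.08% and 7.87% of all genes, with a median of -0.33. With median scaling it was lower for 2 and higher for 0. The lower calls were 5 without vehicle replicate 3, R1881 replicate 1 or 3, Torin 1 replicate 1 or 2 or combination replicate 1 or 3, and the higher calls were 1 without vehicle replicate 1, R1881 replicate 3 or Torin 1 replicate 2. LDHA, the A chain of lactate dehydrogenase, had levels of 12.30, 12.30 and 12.35 with vehicle, 12.86, 12.79 and 12.74 with R1881, 11.55, 11.48 and 11.48 with Torin 1 and 10.92, 10.86 and 10.99 with the combination. No arrays of different groups overlapped, with R1881 highest and the combination lowest. Its response reversed from 0.48 to -0.58 log2 (interaction -1.06 ± 0.10, adjusted p = 1.53e-05), and its second bright probe gave -1.09. ENO1, enolase 1, stood at 12.20, 12.26 and 12.28 with vehicle, 12.63, 12.50 and 12.56 with R1881, 12.03, 11.98 and 12.03 with Torin 1 and 11.69, 11.67 and 11.59 with the combination. It followed the same order, with an interaction of -0.68 ± 0.10 (adjusted p = 0.000599). PLA2G4F, a phospholipase A2, and OVGP1, an oviduct glycoprotein, also reversed, from 0.72 to -0.69 and from 0.40 to -0.91 log2 (adjusted p = 1.47e-05 and 2.9e-06). CRCP, an RNA polymerase III subunit, had an interaction of -2.12 ± 0.40 (adjusted p = 0.00321) on its brightest probe and -0.31 and -0.25 on the other 2. Of 50 listed subunits of oxidative phosphorylation 46 were measured, 4 were lower and 0 higher by limma (8 and 0 at an unadjusted p under 0.05), with a median of -0.09. The share called, 8.7%, was below the 14.9% of all genes, and 7.08% of all genes were lower. CYC1, cytochrome c1, had an interaction of -0.67 ± 0.10 (adjusted p = 0.000713).

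Reversal from a fall to a rise was called on the brighter probe of FBXO32, a ubiquitin ligase that FOXO factors raise in wasting muscle, with levels of 6.52, 6.62 and 6.70 with vehicle, 6.38, 6.05 and 6.29 with R1881, 7.31, 7.48 and 7.43 with Torin 1 and 8.36, 8.50 and 8.50 with the combination. None of the groups overlapped, with R1881 lowest and the combination highest, and the response went from -0.37 to 1.04 log2 (interaction 1.42 ± 0.14, adjusted p = 1.68e-05). Its other kept probe showed no fall, with 0.03 log2 without and 1.03 under Torin 1 (interaction 1.00, adjusted p = 0.00413). RDH10, a retinol dehydrogenase, had levels of 7.70, 7.76 and 7.62 with vehicle, 7.31, 7.14 and 7.13 with R1881, 7.03, 7.25 and 7.06 with Torin 1 and 8.41, 8.11 and 8.43 with the combination. Either agent alone lowered it, and the combination stood above vehicle (interaction 1.70 ± 0.14, adjusted p = 6.24e-06). CDK14, a cyclin-dependent kinase, stood at 6.76, 6.76 and 6.84 with vehicle, 6.24, 6.27 and 6.31 with R1881, 6.79, 6.56 and 6.68 with Torin 1 and 8.00, 7.71 and 7.84 with the combination, with an interaction of 1.68 ± 0.12 (adjusted p = 2.35e-06). HBEGF, a ligand of the EGF receptor, went from -0.36 to 1.11 log2 (adjusted p = 1.53e-05). ULK1, the kinase that starts autophagy and that mTOR complex 1 inhibits, went from -0.28 to 0.32 (adjusted p = 0.00271). GDF15, a stress cytokine, went from -0.25 to 0.40 (adjusted p = 0.00181). In the list of lysosome and autophagy genes 35 of 42 were measured, with 6 higher and 1 lower (ATG5) and a median of 0.14, and 3 and 1 with median scaling. Among FOXO targets and receptor feedback genes 30 of 35 were measured, with 5 higher and 2 lower and a median of 0.10, and 2 and 2 with median scaling. The higher calls were 2 without combination replicate 2 or 3 and 3 without vehicle replicate 3, R1881 replicate 2 or 3 or combination replicate 1. Of the genes of ID and bone morphogenetic protein signalling 16 of 32 were measured, with 5 higher and 1 lower and a median of 0.13. Of p53 targets 21 of 26 were measured, with 1 higher (GDF15) and 2 lower (SPATA18 and TRIAP1) and a median of -0.09. The call of TRIAP1 was lost in 14 of 22 alternatives. Only 1 was lower without any 1 of the arrays other than vehicle replicate 1, R1881 replicate 3 and Torin 1 replicate 1. Of neural and neuroendocrine genes 11 of 24 were measured, with 4 higher and 0 lower by limma (4 and 1 at an unadjusted p under 0.05) and a median of 0.18, and among the luminal markers 4 were higher and 1 lower. Shares called were 20% (lysosome), 23.3% (FOXO), 37.5% (ID), 14.3% (p53), 36.4% (neural) and 38.5% (luminal), against 14.9% of all genes. The p53 share was thus near that of all genes.

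**Figure D4:**
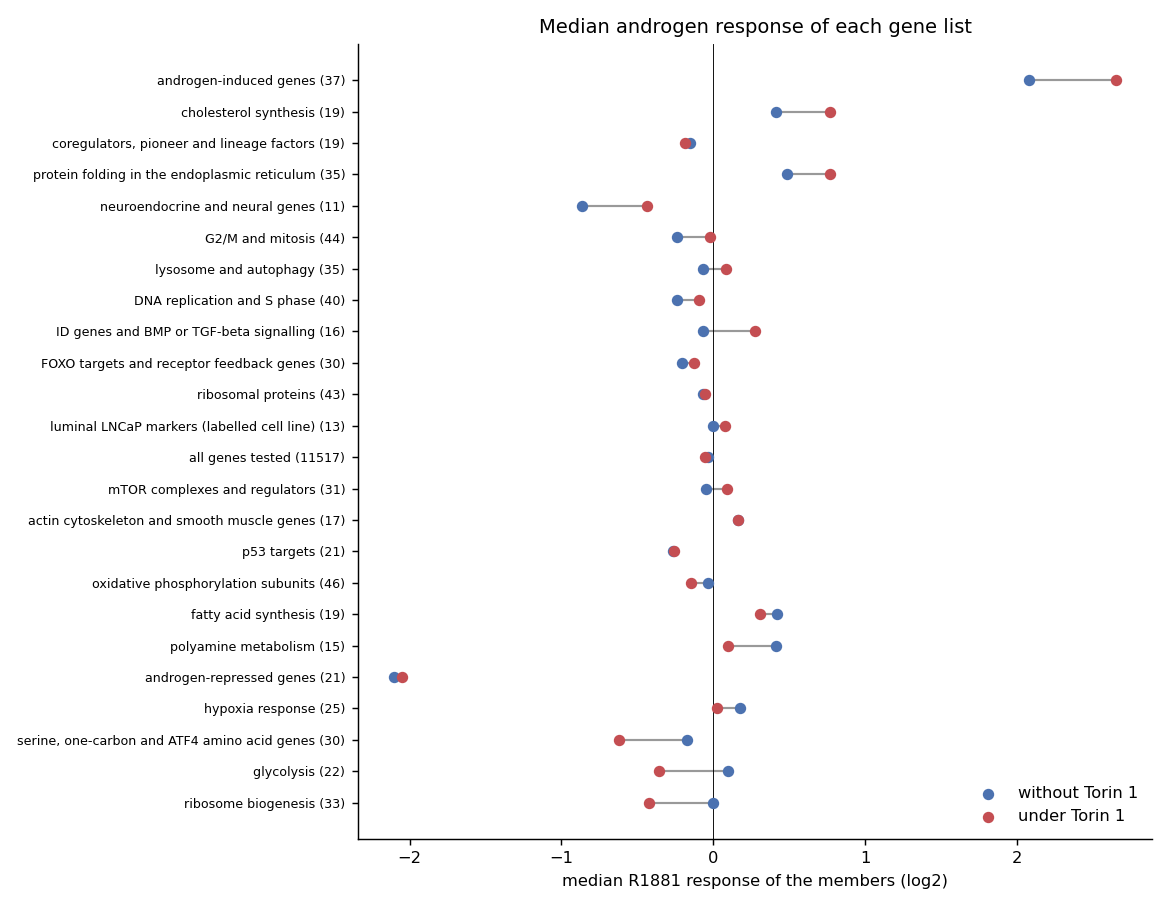
Median R1881 response (log2, horizontal axis) of the measured members of each gene list, whose number stands in brackets, without Torin 1 (blue) and under it (red). Lists are ordered by their median interaction. Androgen-induced genes move from 2.08 to 2.65, while the ribosome biogenesis and glycolysis medians move from -0.01 to -0.42 and from 0.10 to -0.36.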

How the data were processed

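RNA from the 12 LNCaP samples was hybridised to Illumina HumanHT-12 V4 bead arrays. The deposited table holds 1 signal intensity per probe and array, not background-corrected or scaled between arrays as far as its values show, and a detection p-value per probe against negative control beads, per the file headers. The authors' processed table holds log2 values with nearly equal medians (6.19 to 6.22), made by a normalization that no label or header names; it served as an alternative. Each of its 12 columns matched its own array best.

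Intensities were background-corrected by normexp with the background taken from the detection p-values (limma 3.58.1 in R 4.3.3, offset 16), log2-transformed and quantile normalized. Of 47323 probes, 20413 were detected (p under 0.05) on at least 3 arrays, 15137 of them with 1 gene symbol in the annotation table, 5274 with none and 2 with several. The brightest probe stood for each of 11517 genes, of which 2894 had several kept probes. Group means of all 12 arrays were fitted with limma (8 residual degrees of freedom) with Benjamini-Hochberg adjustment over all genes, and the steps were tested on simulated data. Levels in the text are normalized log2 intensities, and errors of differences are standard errors. The number of arrays limits the precision. Bounds replace folds for genes detected on no array of a group.

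Genes chosen for naming were those called and measured in all groups with the largest interaction, 4 per kind and direction for amplified, lost, gained and reversed and 3 for attenuated and neither. To these were added the 6 largest with an undetected group, up to 3 members of each of 26 lists by adjusted p, and a few androgen targets with MTOR. Not every gene so chosen is described above. Those of the neither kind (CNOT3, LHFPL6, VCY, TIMM8A, TMEM161A and FAM162A) were left out, and their calls were each lost in 9 to 16 alternatives. The members and lists were chosen with earlier results of these data known.

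Alternatives were median scaling, cyclic loess, the authors' table, no background correction, an offset of 50, no filter on dim probes, detection on all 12 arrays, the mean of kept probes, an intensity trend, a replicate block and leaving out each array.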

Additional observations from a re-analysis of the deposited data

Results flagged for a closer look

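The R1881 response differed between cells without and with Torin 1 for 1721 genes by the interaction test. Among genes measured in all groups, the largest turns of direction were the following. From a rise to a fall, the interaction was -2.29 log2 for ACTA2, -2.12 for CRCP (brightest of 3 probes, the other 2 not called), -1.41 for PLA2G4F and -1.31 for OVGP1. From a fall to a rise it was 1.70 for RDH10, 1.68 for CDK14, 1.47 for HBEGF and 1.42 for FBXO32, whose other kept probe showed no fall without Torin 1 (0.03 log2) and an interaction of 1.00.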

How the results depend on the processing

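With median scaling the interaction calls fell from 1721 to 817 (546 higher, 271 lower), made up of 228 amplified, 70 attenuated, 184 lost, 280 gained, 54 reversed and 1 neither, and 806 of the 1721 genes were called again. The median over all genes was -0.01 log2 and 0.04 with median scaling. Under the other alternatives the calls ran from 1359 (without Torin 1 replicate 2) to 2019 (no background correction). Leaving out 1 array gave 1359 to 1529 calls in all, and 9 to 28 genes in the small class of neither response, which held 13 with the authors' processed table. The medians of the mTOR, actin, luminal, basal and immune lists changed sign in at least 1 alternative, and no other list median did. List medians that moved by more than their spread were as follows. Median scaling gave medians of -0.18 (androgen-repressed), 0.21 (DNA replication), 0.37 (G2/M), -0.069 (fatty acid), -0.021 (oxidative phosphorylation), -0.23 (serine and ATF4), -0.11 (polyamine), 0.074 (ribosomal proteins), -0.34 (ribosome biogenesis), 0.36 (protein folding) and 0.30 (neural). Cyclic loess gave medians of 0.34 (G2/M) and -0.27 (serine and ATF4). The authors' processed table gave medians of 0.30 (androgen-induced), -0.030 (androgen-repressed), 0.20 (cholesterol), -0.091 (fatty acid), -0.29 (ribosome biogenesis), -0.14 (hypoxia), -0.022 (p53) and 0.22 (coregulator). No background correction gave medians of 0.29 (androgen-induced), -0.030 (androgen-repressed), 0.048 (FOXO), 0.23 (cholesterol), -0.11 (polyamine), -0.27 (ribosome biogenesis), 0.076 (lysosome), 0.23 (protein folding), -0.15 (hypoxia), -0.020 (p53), 0.18 (coregulator) and -0.17 (stromal). An offset of 50 gave medians of 0.38 (androgen-induced), -0.060 (androgen-repressed), -0.32 (ribosome biogenesis) and -0.17 (hypoxia). No filter on dim probes gave medians of 0.033 (FOXO), -0.23 (serine and ATF4), -0.32 (ribosome biogenesis), 0.026 (neural) and -0.016 (stromal). Detection on all 12 arrays gave medians of 0.38 (androgen-induced), 0.046 (FOXO), -0.37 (ribosome biogenesis), 0.30 (neural), -0.54 (stromal) and -0.71 (immune). The mean of kept probes gave medians of 0.38 (androgen-induced), -0.10 (polyamine), -0.32 (ribosome biogenesis) and 0.042 (actin). Leaving out 1 array moved the medians over -0.28 to -0.15 (androgen-repressed), 0.15 to 0.24 (G2/M), 0.010 to 0.055 (ribosomal proteins), -0.42 to -0.35 (ribosome biogenesis), -0.36 to -0.20 (hypoxia), -0.16 to -0.036 (actin), -0.061 to 0.17 (luminal) and -0.75 to -0.13 (immune). SLC9B2 (1.91) ranged from -0.22 to 1.97 over these, and turned to -0.22 and -0.04 without combination replicate 1 or 3, where its other probe was used.

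Of 109 called genes chosen by the naming rule, 87 kept their call and direction in every alternative in which they were tested. Not every gene was tested in each alternative, and a setting that drops a gene cannot lose its call. NNT and KRT19, for example, were tested in 18 alternatives and CRLS1 in 22. Dim probes and 3 arrays a group set the limits: 206 of the 1721 genes have a group with no detection, and the cause of the differences between settings was not tested. As a replicate block, the replicate numbers gave 1547 calls, 1488 of them among the 1721, and 16 in the class of neither response. Deviations of same-numbered arrays correlated with r from -0.14 to 0.18, and 4 of the 12 arrays were closest to one that shares their number, so the fits without the block stand.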

Other observations

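Probes with no gene symbol in the annotation used here also departed from additivity. Among the 5274 such probes kept, the interaction was called for 304 (5.76%), 168 of them higher and 136 lower under Torin 1, against 10.2% of all 20413 kept probes. ILMN_2053415 had the largest value (2.41 ± 0.22 log2, adjusted p = 1.7e-05). Its level was 10.09, 9.86 and 9.70 with vehicle, 10.40, 9.99 and 10.40 with R1881, 7.48, 7.03 and 6.92 with Torin 1 and 9.85, 10.03 and 9.92 with the combination. Torin 1 alone stood apart from the other 3 groups, which overlapped.

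Among the 465 amplified genes the median level with vehicle was 7.35 log2, and among the 129 attenuated genes it was 6.86. The 2184 genes with a response called only under Torin 1 outnumbered the 1282 called only without it, most of both without a called interaction.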
